A study of Mus musculus with 5 samples.

Results

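The genes described here are 10 members of the Notch pathway: the ligand genes Dll1, Dll3 and Jag1, the receptor genes Notch1, Notch2 and Notch3, and the effector genes Hes1, Hes5, Hes6 and Hey1. For each gene, the NEUROD2 peaks were taken whose midpoint lay in the gene span or up to 50 kb from either end, and overlapping peaks were merged into regions. This gave 110 of the 94621 deposited peaks, which merged into 68 regions of 53833 in the genome. Binding was measured by ChIP-Seq in chromatin of the cerebral cortex (dorsal telencephalon) of BALB/c mouse embryos at E14.5, and the labels name no treatment and no altered allele. NEUROD2, a neuronal bHLH transcription factor, was precipitated with 3 antibodies, a mouse antibody (ab1) and a pair of rabbit antibodies (ab2 and ab3), and 2 GFP antibodies, from mouse and rabbit, served as controls for peak calling. Each antibody gave 1 library from pooled embryos of several litters, so that the same condition was measured 3 times with different antibodies, without biological replicates. The libraries of ab2 and ab3 share 1 GFP control, so they are not fully independent of each other. The spread given below is the SD over antibodies. The list of ab1 holds 51841 peaks, that of ab2 35310 and that of ab3 7470, and sequencing depth cannot be read from them. Peak lists hold no expression values, so the labelled tissue could not be checked against marker genes, and the dissected cortex is a mixture of progenitors, neurons and other cells.

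In Notch signalling, a ligand on one cell binds a receptor on its neighbour, the receptor is cleaved, and its intracellular domain enters the nucleus, where it joins the DNA-binding protein RBPJ and switches on Hes and Hey genes. In the embryonic cortex the pathway keeps radial glia, the neural progenitors, from differentiating, while newborn neurons and committed progenitors present the ligands. Proneural bHLH factors are known to switch on ligand genes, and they bind E-boxes, which are sites of the form CANNTG.

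The sequences below show which E-boxes lie at the regions discussed. They were taken for the strongest region of each of the 4 genes with the highest gene score (defined below), for the regions with at least 2 antibodies within 1 kb of the transcription start site (TSS) of a ligand gene, and for the Hes6 promoter region, which was added after its values were seen. Each is 200 bases of GRCm38 (mm10), 5′ to 3′ on the strand of the gene, named by the distance of its centre from the TSS in the gene's direction. Capitals mark every CANNTG. The windows are centred on the narrowest peak of the region, except at Dll3, where the window was moved by -324 bases along the chromosome into the nearest sequence that is no untranslated region. The reference comes from C57BL/6J mice, so BALB/c variants were not seen. The windows lie at chr17:15343246-15343445 (minus strand) for the distal Dll1 region, chr3:98111194-98111393 (plus) for Notch2, chr2:26471720-26471919 (minus) for Notch1, chr4:154953858-154954057 (plus) for Hes5, chr17:15376149-15376348 (minus) for the Dll1 promoter, chr7:28301547-28301746 (minus) for Dll3 and chr1:91413247-91413446 (minus) for Hes6.
Dll1, 32630 bp: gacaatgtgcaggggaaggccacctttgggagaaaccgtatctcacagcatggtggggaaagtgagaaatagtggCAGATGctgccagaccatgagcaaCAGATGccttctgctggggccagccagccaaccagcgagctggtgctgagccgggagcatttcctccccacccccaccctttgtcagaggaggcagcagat
Notch2, 97756 bp: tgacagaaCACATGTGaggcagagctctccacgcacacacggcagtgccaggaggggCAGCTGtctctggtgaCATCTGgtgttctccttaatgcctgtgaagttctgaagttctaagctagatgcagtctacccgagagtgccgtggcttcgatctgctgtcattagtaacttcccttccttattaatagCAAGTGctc
Notch1, 32002 bp: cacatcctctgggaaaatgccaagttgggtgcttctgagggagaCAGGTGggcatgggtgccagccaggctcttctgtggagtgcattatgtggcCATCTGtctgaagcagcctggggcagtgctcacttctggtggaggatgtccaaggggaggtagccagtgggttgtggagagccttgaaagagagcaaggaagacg
Hes5, -6965 bp: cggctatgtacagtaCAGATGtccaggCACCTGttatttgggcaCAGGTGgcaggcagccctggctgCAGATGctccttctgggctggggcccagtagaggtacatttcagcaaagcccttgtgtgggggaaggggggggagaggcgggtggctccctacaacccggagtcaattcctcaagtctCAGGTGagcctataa
Dll1, -273 bp: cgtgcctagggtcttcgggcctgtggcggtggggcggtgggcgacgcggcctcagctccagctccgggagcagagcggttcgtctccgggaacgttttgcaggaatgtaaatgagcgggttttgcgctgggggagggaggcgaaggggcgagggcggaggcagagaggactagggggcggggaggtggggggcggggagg
Dll3, 591 bp: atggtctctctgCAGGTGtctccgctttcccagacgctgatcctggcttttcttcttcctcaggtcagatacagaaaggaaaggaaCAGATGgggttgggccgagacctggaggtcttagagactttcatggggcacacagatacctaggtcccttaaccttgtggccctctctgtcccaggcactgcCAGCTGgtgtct
Hes6, -125 bp: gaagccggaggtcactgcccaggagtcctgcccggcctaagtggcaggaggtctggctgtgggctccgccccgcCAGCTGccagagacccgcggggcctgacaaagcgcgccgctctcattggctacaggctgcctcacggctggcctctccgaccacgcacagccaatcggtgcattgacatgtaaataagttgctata

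All 10 genes had NEUROD2 peaks. A peak of ab1 lay in the window of 10 of 10 genes, against 77.5% of the windows of all protein-coding genes made in the same way. For ab2 the count was also 10 of 10, against 70.2%. A peak of ab3, the antibody with the shortest list, lay at 6 of 10 genes, against 27.3%. The windows held 62 ab1 peaks, 41 ab2 peaks and 7 ab3 peaks (36.7 ± 27.8, SD, n = 3 antibodies). The spread of these counts follows the lengths of the lists. Relative to the length of each list the counts were close to one another for ab1 and ab2, at 0.120% and 0.116% of all peaks. For ab3 the share was 0.0937%, which rests on only 7 peaks.

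Of the 68 regions, 34 had peaks of at least 2 antibodies (50%, 95% Wilson interval 38.4 to 61.6), against 59.9% of all merged regions in the genome. The intervals given for shares cover counting error only. The 34 regions comprised 28 with ab1 and ab2 and 6 with all 3 antibodies (17.6%, 8.35 to 33.5), against 22.2% of such regions in the genome. Each of the 34 therefore had a peak of ab1 and a peak of ab2. Without the library of ab1, or without that of ab2, the number of regions with at least 2 antibodies was 6, and without that of ab3 it stayed at 34. Among the regions of a single antibody, 27 had ab1, 6 had ab2 and 1 had ab3. The single-antibody regions were mostly weak: those of ab1 had a median peak score of 84.1 (50.31 to 1041.79), whereas the median ab1 score in regions of at least 2 antibodies was 447 (58.59 to 3100). The peak score, which MACS computes as 10 times −log10 p, was not scaled between libraries.

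At least 1 region with at least 2 antibodies was found at 10 of 10 genes, against 67.6% of protein-coding genes, and at 9 of 10 when peaks under a score of 100 were dropped, which removed Hes1, against 54.8% of protein-coding genes with that minimum. A region with all 3 antibodies was found at 5 of 10 genes, against 26.7%, namely Dll1, Dll3, Notch2, Notch3 and Hes6. These 5 genes are also those left without the library of ab1 or without that of ab2, against 26.8% of protein-coding genes in these settings. The TSS lay within 1 kb of the midpoint of a region with at least 2 antibodies at 6 of 10 genes, against 20.8%. The 6 were Dll1, Dll3, Notch2, Hes5, Hes6 and Hey1, and without ab1 or without ab2 only Dll3 and Hes6 were left, against 1.61%.

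**Figure D1:**
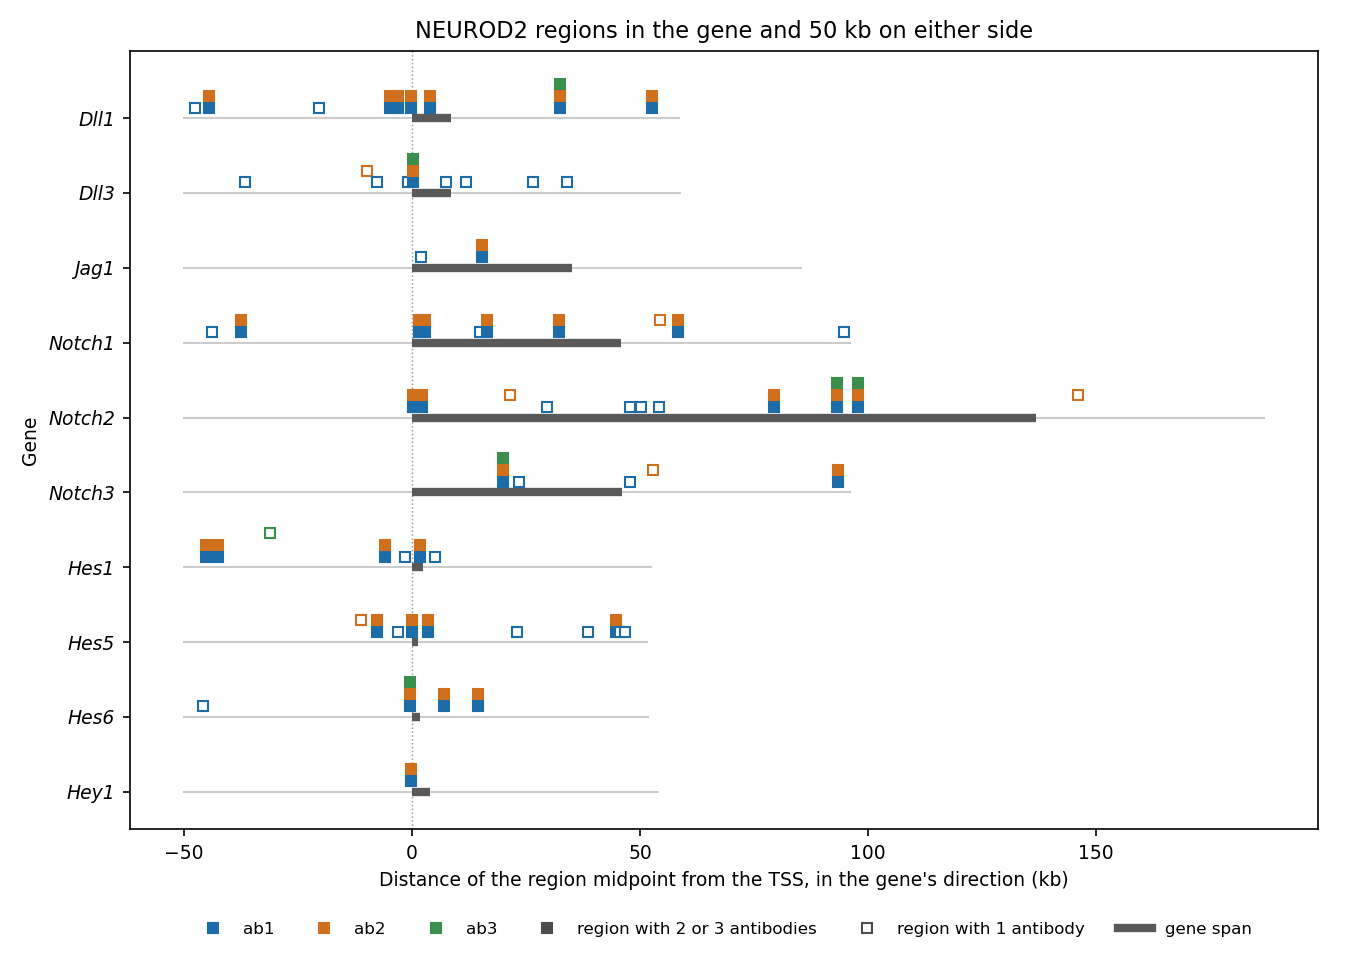
Regions at the 10 genes, by the distance of the midpoint from the TSS in the gene's direction (kb, horizontal axis); each row is a gene, the thick bar its span, the thin line the window, and each square a peak of ab1, ab2 or ab3 in the region, open where the region has 1 antibody. Dll1 has 7 regions with at least 2 antibodies, most of Dll3's regions are open squares, and Hey1 has 1 region.

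Among the ligand genes, Dll1 had many regions and Dll3 and Jag1 had 1 region with at least 2 antibodies each. The 3 ligand windows held 20 regions, of which 9 had at least 2 antibodies and 2 had all 3. Dll1, which encodes the Delta-like ligand that activates Notch on neighbouring cells, lies at chr17:15367354-15375976 on the minus strand. In its window, 9 peaks came from ab1, 7 from ab2 and 1 from ab3, and they merged into 9 regions, of which 7 had at least 2 antibodies. At the Dll1 promoter, a region centred at -247 bp (chr17:15374509-15377937) had a score of 819.39 with ab1 and 92.86 with ab2. Relative to their own lists these scores differed widely, at the percentiles 88.0 and 36.5. Further upstream, the region at -3.03 kb had scores of 459.50 and 135.49, and that at -4.86 kb had 1238.75 and 230.15, both with ab1 and ab2. The promoter and these regions thus form a group of 3 within 5 kb upstream of the TSS, all without a peak of ab3.

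The strongest Dll1 region lay 32.4 kb from the TSS, downstream of the gene (chr17:15342812-15344296). It scored 1763.89 with ab1, 1095.30 with ab2 and 190.03 with ab3, which are the percentiles 95.6, 95.6 and 82.1 (91.1 ± 7.82, SD, n = 3 antibodies). All 3 antibodies thus placed this region in the upper part of their lists. The sequence printed for it holds 2 CANNTG, both CAGATG. Its closest annotated TSS, of the pseudogene Gm7423, was 21672 bp away. A region with 2 antibodies at 52.6 kb, with scores of 974.89 and 432.64, also lay closest to Gm7423, at 1512 bp. The remaining Dll1 regions with 2 antibodies were weaker, in intron 4 at 3.93 kb (162.02 with ab1 and 61.32 with ab2) and at -44.5 kb (129.01 and 59.92).

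Dll3 encodes a divergent ligand that acts mainly inside the signal-receiving cell as an inhibitor of Notch, and it lies at chr7:28293553-28302238 on the minus strand. Of its 9 regions, 8 had a single antibody, and 1 had all 3. The latter was centred 293 bp into the gene, in the 5′ UTR of exon 1 (chr7:28301075-28302814). Its scores were 1506.34 with ab1, 618.79 with ab2 and 91.15 with ab3, at the percentiles 94.4, 89.6 and 51.8 (78.6 ± 23.3, SD, n = 3). The score was thus high in the lists of ab1 and ab2 and near the middle of that of ab3. The other Dll3 regions scored between 50.31 and 267.49, and the highest of them lay 37 bp from the TSS of a neighbour, Supt5.

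Jag1, which encodes the Jagged-class ligand, lies at chr2:137081456-137116644 on the minus strand. Its window held 3 peaks in 135.2 kb. A region in intron 4, 15.3 kb from the TSS (chr2:137100865-137101767), scored 627.51 with ab1 and 202.60 with ab2, at the percentiles 84.3 and 66.4 (75.3 ± 12.7, SD, n = 2). Nearer to the Jag1 TSS, at 2.06 kb in intron 2, ab1 alone had a weak peak with a score of 81.92. No region with at least 2 antibodies lay at the Jag1 promoter.

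The receptor windows held 26 regions, of which 13 had at least 2 antibodies and 3 had all 3, and most of the strong regions lay inside the genes. Notch1, the main Notch receptor of cortical progenitors, lies at chr2:26457903-26503822 on the minus strand. It had 10 regions, 6 of them with ab1 and ab2, and no peak of ab3. Inside the gene, the region at 1.60 kb in intron 1 scored 111.42 with ab1 and 77.80 with ab2, and that at 2.98 kb in intron 2 scored 97.98 and 55.57. Both were weak in both lists, at percentiles between 7.42 and 39.0. Deeper in intron 2, the region at 16.5 kb was strong with ab1 (558.72) and weak with ab2 (79.82). The Notch1 region with the highest summed percentile lay in intron 19 at 32.3 kb (chr2:26471002-26472117), with scores of 429.03 and 189.86 (percentiles 77.8 and 64.6, 71.2 ± 9.34, SD, n = 2). Outside the gene, the region at -37.3 kb had the highest ab1 score of the locus, 719.62, with 110.80 for ab2. A region at 58.2 kb (251.90 and 143.78) lay 101 bp from the TSS of another transcript, 0610009E02Rik.

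Notch2, another receptor of progenitors, lies at chr3:98013538-98150361 on the plus strand and has the longest window, 236.8 kb. Of its 11 regions, 5 had at least 2 antibodies, and all 5 lay in introns. At the Notch2 promoter, the region at 250 bp in intron 1 scored 131.99 with ab1 and 77.45 with ab2, and the region at 2.24 kb scored 138.39 and 58.34. These promoter-side regions were weaker than a pair in the middle of the gene. The stronger of that pair lay in intron 12 at 97.7 kb (chr3:98110822-98111613), with scores of 1204.43, 495.41 and 57.00 for ab1, ab2 and ab3. Its percentiles were 92.4, 86.3 and 14.3 (64.3 ± 43.5, SD, n = 3), so that ab3 placed it far lower than the others did. The other, in intron 11 at 93.2 kb, scored 735.29, 317.99 and 50.63, and its ab3 score was at percentile 1.11. A narrow region of 412 bp in intron 5 was the weakest of the 5 with ab1 (64.98), with 86.58 for ab2.

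Notch3, the receptor known from vascular mural cells and also present in progenitors, lies at chr17:32120820-32166852 on the minus strand. It had 5 regions, of which 2 had at least 2 antibodies, and none lay at its promoter. The stronger was in intron 19, 19970 bp from the TSS (chr17:32146326-32147437), with scores of 685.42 for ab1, 486.63 for ab2 and 60.46 for ab3. The percentiles were 85.6, 86.1 and 20.2 (63.9 ± 37.9, SD, n = 3), again with ab3 lowest. A region at 93.3 kb, past the end of the gene, scored 504.12 with ab1 and 230.04 with ab2.

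The effector windows held 22 regions, of which 12 had at least 2 antibodies and 1 had all 3, and 3 of the 4 effector genes had a region at the promoter. Hes6, which encodes a Hes-family protein that promotes neuronal differentiation and counteracts HES1, lies at chr1:91411483-91413222 on the minus strand. Its promoter region at -441 bp (chr1:91411936-91415389) was the strongest of all 68 regions. It scored 3100 with ab1, 3100 with ab2 and 283.51 with ab3. The value 3100 is shared by 661 peaks of ab1 and 62 of ab2, which cannot be ranked among themselves, and only 69 peaks of ab1 and 14 of ab2 score higher. The percentiles were 99.2, 99.9 and 90.6 (96.6 ± 5.20, SD, n = 3), high with every antibody. This region was also the widest of those with at least 2 antibodies, at 3454 bp, and it covers most of the gene. The other Hes6 regions with 2 antibodies were weak and lay at the TSS of neighbours, at 42 bp from 1700020N18Rik (137.74 and 65.24) and at 18 bp from Ilkap (83.34 and 57.48).

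Hes5, which encodes a bHLH repressor that keeps radial glia undifferentiated, lies at chr4:154960923-154962371 on the plus strand. Its window held 10 peaks of ab1 and 6 of ab2 and none of ab3, in 10 regions, 4 of them with both antibodies. The promoter region at 134 bp scored 481.99 with ab1 and 139.15 with ab2. A stronger region lay at -7.55 kb (chr4:154952393-154954351), with scores of 800.85 and 240.38 (percentiles 87.7 and 71.1, 79.4 ± 11.8, SD, n = 2). Between them, at -2.97 kb, ab1 alone had a peak with a score of 1041.79, the highest ab1 score at Hes5, at percentile 91.0 of its list. Downstream, a region at 3.48 kb (390.10 and 130.65) lay 266 bp from the TSS of Pank4, and a region at 44.6 kb scored 485.98 and 184.29.

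Hes1, the other main Hes repressor of radial glia, lies at chr16:30065340-30067796 on the plus strand, and its regions were weak with ab2, at percentiles up to 36.1. Of its 7 regions, 4 had ab1 and ab2. The region with the highest summed percentile lay at -42.4 kb (chr16:30022538-30023403) and scored 207.60 with ab1 and 74.69 with ab2 (percentiles 60.4 and 25.2, 42.8 ± 24.9, SD, n = 2). Nearer to the gene, the region at -5.89 kb scored 107.09 and 68.79, and that at 1.74 kb, in coding exon 4, scored 58.59 and 91.84. The latter was the lowest ab1 score among the 34 regions. The highest ab1 score at Hes1, 225.10, belonged to a region of ab1 alone at -1.46 kb. No region with at least 2 antibodies lay within 1 kb of the Hes1 TSS used here, although one did when every annotated TSS of the gene was allowed.

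Hey1, which encodes a related bHLH repressor, lies at chr3:8663359-8667256 on the minus strand. It had the fewest peaks of the 10 genes, 1 of ab1 and 1 of ab2, which formed a single region at -184 bp (chr3:8666499-8668381). The scores were 434.34 and 159.46 (percentiles 78.0 and 58.6, 68.3 ± 13.7, SD, n = 2). This promoter region was thus of middling to high strength in both lists.

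Compared by the strongest region of each gene, Hes6 and Dll1 stood highest with every antibody that had a peak there, and the ab3 percentiles were spread widely. The ab1 percentile was between 60.4 at Hes1 and 99.2 at Hes6, and the ab2 percentile between 25.2 and 99.9, at the same genes. For the 5 genes with a peak of ab3 in the region, the ab3 percentile ran from 14.3 at Notch2 through 20.2 at Notch3, 51.8 at Dll3 and 82.1 at Dll1 to 90.6 at Hes6. Since 5 of the genes have no ab3 peak in the region, the genes were ordered by the mean of ab1 and ab2, which all of them have. The mean percentile fell from 99.6 ± 0.455 (SD, n = 2 antibodies) at Hes6 and 95.6 ± 0.00839 at Dll1 through 92.0 ± 3.36 at Dll3, 89.4 ± 4.29 at Notch2 and 85.8 ± 0.352 at Notch3 to Hes5, Jag1, Notch1, Hey1 and Hes1, whose values are given above. These SDs include the offset between ab1 and ab2 at a gene, so they do not measure the error of a step between genes. Taken alone, ab2 gave the same order of the genes. With ab1 alone, the order differed in that Hes5 (87.7) stood above Notch3 (85.6) and Hey1 (78.0) above Notch1 (77.8). With ab3 included, Notch2 and Notch3 (64.3 and 63.9) come below Hes5, Jag1, Notch1 and Hey1, which have no ab3 value, so that such means are not comparable between these genes. Over all 34 regions the median percentile was 78.6 for ab1, against 68.1 in all regions of the genome with at least 2 antibodies. For ab2 it was 51.9, against 53.9, and for the 6 regions with ab3 it was 36.0, against 50.9. The median at the Notch genes was thus above the genome's with ab1 and below it with ab2 and ab3.

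**Figure D2:**
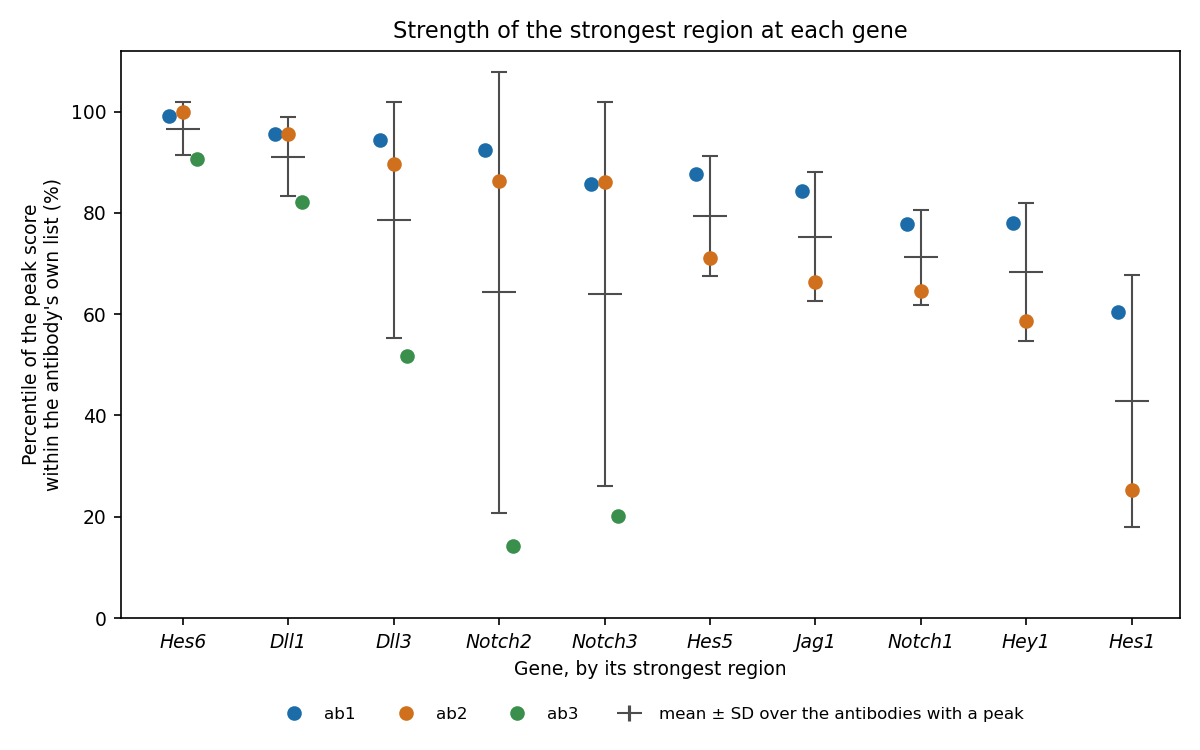
Percentile of the peak score of the strongest region at each gene within each antibody's own list (%, vertical axis), with the mean and SD over the antibodies that have a peak there; genes are ordered by the mean of ab1 and ab2. Hes6 and Dll1 are above 80 with every antibody, while the ab3 points of Notch2 and Notch3 lie at 14.3 and 20.2.

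The 34 regions lay mostly outside promoters, and at 7 of the 10 genes their number per window was above the median gene's. By position, 11 were upstream of the gene, 8 downstream, 13 in introns and 2 in exons. The closest TSS was that of the Notch gene itself for 17 regions and of another gene for the other 17, of which 2 were protein-coding genes and 15 were of other types such as lincRNAs and pseudogenes. Within 1 kb of any closest TSS lay 10 regions (29.4%, 16.8 to 46.2), against 15.7% in the genome, and in 4 of the 10 that TSS belonged to another gene, namely Pank4, 0610009E02Rik, 1700020N18Rik or Ilkap. The windows add up to 1291 kb and held 2.63 regions with at least 2 antibodies per 100 kb, against 1.22 per 100 kb of known bases. The median gene of the 10 had 3.50 such regions, and the median protein-coding gene had 1.00. Dll1 had 7, at percentile 93.8 of protein-coding genes, Notch1 had 6 and Notch2 had 5, at the percentiles 91.5 and 87.8. Hes1 and Hes5 had 4 each, Hes6 had 3 and Notch3 had 2. The count was 1 at Dll3, Jag1 and Hey1, which is the median. Windows differ in length. Per 100 kb, Dll1 had 6.44, Notch1 4.11, Hes5 3.94, Hes1 3.90, Hes6 2.95, Notch2 2.11, Notch3 1.37 and Hey1 0.962 regions. These were above the median of 0.95 over protein-coding genes, that of Hey1 only just, while Jag1 had 0.740 and Dll3 0.920. Notch2, with the longest window, was thus at percentile 72.9 per 100 kb, lower than by its count. At the edge of the windows, 6 regions lay between 45 and 50 kb from a gene, 2 of them with at least 2 antibodies, and 3 lay just outside, between 50 and 55 kb, of which 2 had at least 2 antibodies.

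**Figure D3:**
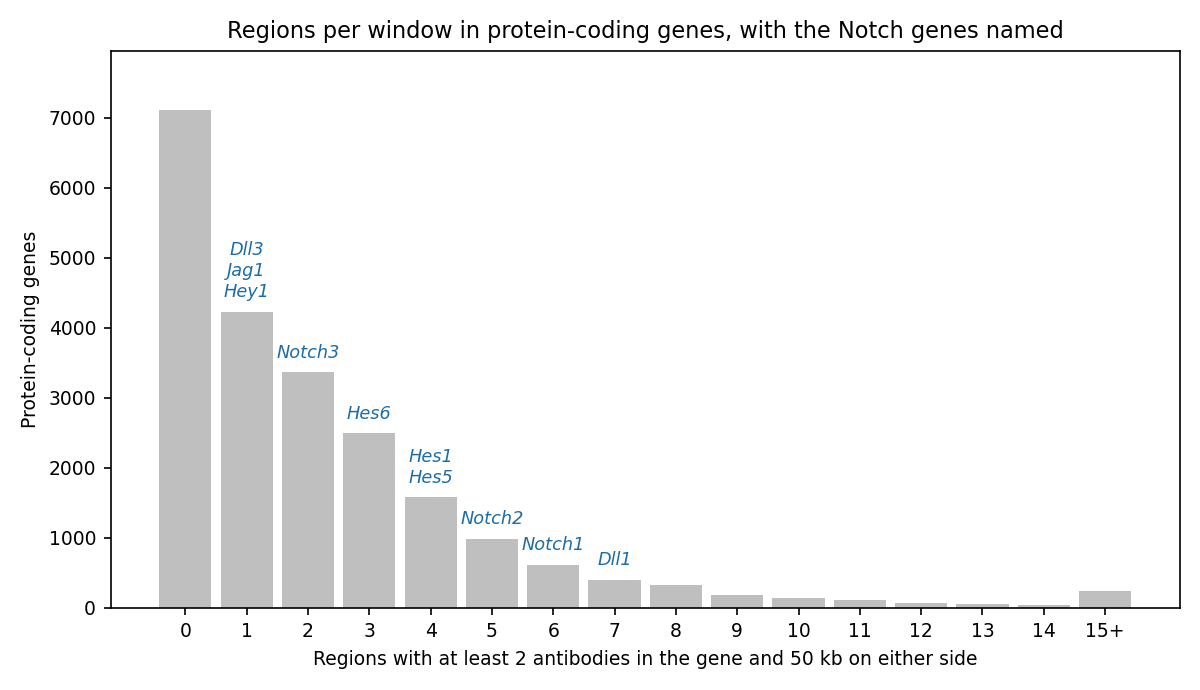
Number of protein-coding genes (vertical axis) by the number of regions with at least 2 antibodies in the gene and 50 kb on either side (horizontal axis, the last bar holds 15 or more), with the 10 Notch genes named above the bar they belong to. The most frequent count is 0, none of the 10 genes is in that bar, and Dll1 has 7.

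To weigh regions by their distance, a gene score was computed by adding up exp(-distance / 5 kb) over the regions for which the TSS of that gene was the closest, so that a single region exactly at the TSS gives 1. The threshold was 0.993, which is 1 SD above the mean of the 16083 genes that had a region. Above it were 5 of 10 genes, against 6.30% of protein-coding genes. These were Dll1 with a score of 1.88, Notch2 with 1.59, Notch1 with 1.31, Hes5 with 1.19 and Hes1 with 1.01. Just below the threshold were Hey1 with 0.964, Dll3 with 0.943 and Hes6 with 0.916, each from 1 promoter region. Jag1 (0.0466) and Notch3 (0.0184), whose regions lay far from the TSS, scored near 0. The score counts regions and not their strength, and Hes1 was above Hes6, which had the strongest region. This order turned when only the TSSs of protein-coding genes could take regions, with 1.15 for Hes6, 1.01 for Hes1 and a threshold of 1.08 (4.24% of protein-coding genes above it), and also with a decay length of 1 kb (0.643 and 0.179). The call was sensitive to the settings: without ab1 or without ab2 only 2 genes were above the threshold of that setting, Dll3 and Hes6, against 2.06% of protein-coding genes, and neither was among the 5. With peaks under a score of 100 dropped, Dll3, Hes6 and Hey1 came above it and Hes1, Notch1 and Notch2 fell below, so that 5 genes were again above it, against 10.2%. Dll1 was above the threshold in each setting tried other than those that rest on ab3.

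The extended E-box stood in a smaller share of the regions near a TSS than of those farther away, at the Notch genes and in the genome. The extended E-box is CAGCTG or CAGATG or CATCTG or CATATG, followed by G or T, searched on both strands, with each 6-base core counted once, so that every match is also a CANNTG. Among the 34 regions with at least 2 antibodies, 14 held it in their middle 200 bp (41.2%, 26.4 to 57.8), against 59.6% of all such regions in the genome. In windows of the same size 1 kb beyond the ends of the regions the share was 20.6% at the Notch genes and 22.3% in the genome. The ligand genes had it in 5 of 9 regions, the receptor genes in 6 of 13 and the effector genes in 3 of 12. Close to a TSS, at 1 kb or less, 1 of 10 regions had the extended E-box (1.79 to 40.4%), against 27.2% of such regions in the genome, and this was the region at the Ilkap TSS. Of the 24 regions farther from a TSS, 13 had it (54.2%, 35.1 to 72.1), against 65.7%, and the intervals of these shares overlap.

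The merged midpoint is an imprecise centre for these regions, whose median width was 1091 bp against 865.0 bp in the genome. When the window was centred on the narrowest peak of each region, a choice made after seeing the data, 19 of 34 regions had the extended E-box (55.9%, 39.5 to 71.1), against 63.1% in the genome. For the 6 regions with all 3 antibodies the number was 5 of 6 with the narrowest peak, against 73.3% of such regions in the genome, and 3 of 6 with the merged midpoint, against 63.4%. In the strongest region of each gene, the distance from the midpoint of the narrowest peak to the nearest extended E-box was 2 bp at Dll1 and at Notch1, 6 bp at Jag1, 18 bp at Notch3, 23 bp at Hes6, 24 bp at Notch2, 82 bp at Hes5, 141 bp at Hes1, 313 bp at Dll3 and 793 bp at Hey1. At Hes6 the match is the CAGCTG printed above. Over the 24 regions more than 1 kb from a TSS, 23 held an extended E-box at a distance of 1 to 202 bp (median 33 bp, against 48.0 bp in the genome), and the region in coding exon 4 of Hes1 held none. Of the 10 regions nearer to a TSS, 6 held one, at 18 to 793 bp (median 486.0 bp, against 148 bp). The promoter regions of Dll3, Dll1, Hes5 and Hey1 had it 313, 659, 717 and 793 bp away, and that of Notch2 had none. Anywhere in the region, the extended E-box was found in 29 of 34 (85.3%, 69.9 to 93.6), against 90.3%, which is a count that grows with width. Over the 34 regions the shares were lower than in the genome at each of these windows, but with the narrowest peak and with the whole region the interval includes the genome's share. Without ab1 or without ab2, which leaves 6 regions, the share at the merged midpoint was 66.7%, against 64.9% and 64.5% in the genome.

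**Figure D4:**
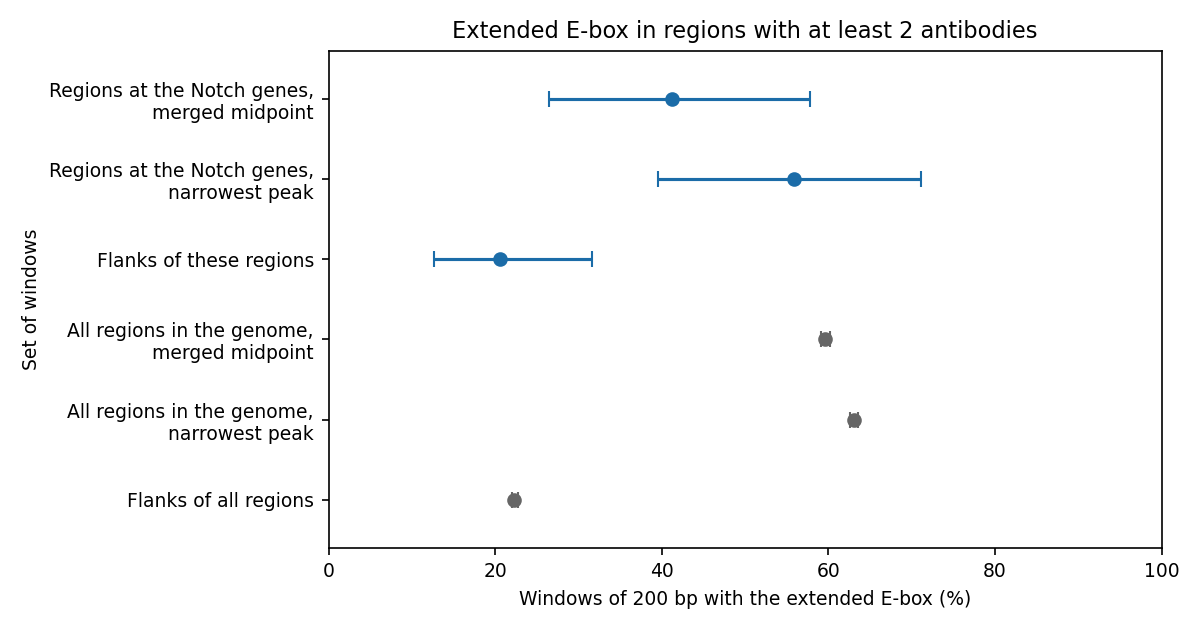
Share of windows of 200 bp that hold the extended E-box (%, horizontal axis) in regions with at least 2 antibodies at the 10 Notch genes (blue) and in the whole genome (grey), and in their flanks; points are shares and bars 95% Wilson intervals. The 34 regions are at 41.2% or 55.9%, depending on the centre of the window, and their flanks at 20.6%.

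By the form of the E-box, CAGATG stood in the central 200 bp of 12 regions (35.3%, against 43.1% in the genome), CAGCTG in 9 (26.5%, against 28.1%) and CACCTG in 6 (17.6%, against 18.0%), with each form counted together with its reverse complement. CATATG was found in 1 region (2.94%, against 11.7%). Of the sequences printed above, the Notch2 window holds 5 CANNTG, among them CAGCTG and CATCTG with the extended form, and the Hes5 window also holds 5. The Dll1 promoter window holds none, and the Dll3 window inside the gene holds 3. For comparison, the core word of the RBPJ site, TGGGAA on either strand, stood in the central 200 bp of 8 of 34 regions (23.5%, 12.4 to 40), against 19.3% of regions in the genome, and in 19.1% of the flanks at the Notch genes. Regions and flanks thus held this word in similar shares. Both TGGGAA and the extended E-box were found in 4 of 34 regions (11.8%, 4.67 to 26.6), and the share in the genome is not given here. A match to a word is a description of the sequence and does not show that a factor was bound there.

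The other genes of the pathway were examined as a list of 45, among them the remaining ligand, receptor, Hes and Hey genes, the enzymes that modify or cleave Notch, and the nuclear partners of its intracellular domain. A region with at least 2 antibodies lay in the window of 40 of the 45 genes, against 67.6% of protein-coding genes, one with all 3 antibodies in 18, against 26.7%, and one within 1 kb of the TSS in 14, against 20.8%. Above the gene score threshold were 7 of the 45, against 6.30%. The median score was 0.00521, against 0.989 for the 10 genes described above and 0 over protein-coding genes. Over the protein-coding genes with a score above 0, as all 10 genes have, the median was 0.923, close to that of the 10. Among the highest scores were those of Dtx1, which encodes a Deltex ubiquitin ligase (1.73), Mfng, a Fringe glycosyltransferase that tunes the response to ligands (1.72), Numbl, a relative of the Notch inhibitor Numb (1.60), and Dll4, a Delta-like ligand (1.25). Within the ligand, receptor, Hes and Hey families, 7 of the other 8 genes had a region with at least 2 antibodies in the window, but only Hey2 had one within 1 kb of the TSS, with a score of 0.990. Jag2 had 5 peaks of ab1 and no region with at least 2 antibodies, and Notch4 had 1 such region. Heyl and Hes2 scored 0.230 and 0.151, and Hes3, Hes7, Jag2 and Notch4 scored 0, since no such region lay closest to their TSS.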

How the data were processed

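NEUROD2 ChIP-Seq peak lists of 3 antibodies were analysed. Per the study's methods, the authors mapped reads to mm10 with Bowtie, dropped duplicate and multiply mapped reads, and called peaks with MACS separately for each antibody, using the GFP library that matched its host as control; the 2 GFP libraries were not analysed here. The deposited score of each peak is 10 times the −log10 p-value of the peak caller as the authors' software wrote it, starts at 50 and was not scaled between libraries, so scores were compared as percentiles within each list. Positions count from 1.

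Peaks were merged at an overlap of at least 1 bp, over all antibodies, and placed by their midpoint on GRCm38 with GENCODE release M21, using the longest-span transcript of each gene. Windows, scores and motifs were computed in the same way for all 21938 protein-coding genes and all 32261 regions with at least 2 antibodies. Sequence was read from the RefSeq copy of GRCm38. Shares have Wilson intervals (95%). With a single condition and 1 library per antibody there was no contrast to test. Alternatives were a minimum score, a stricter overlap, all 3 antibodies, each antibody left out, other centres, window sizes, TSS choices, decay lengths and motifs. Named were the 10 genes, the 5 other pathway genes with the highest score, of which 1 is not reported here, the remaining family members, neighbours with the closest TSS, and sequences by the rule stated beside them. The genes, lists and tests were chosen with earlier results of these data known. Python 3.11.15, numpy 2.4.6, scipy 1.17.1, pysam 0.24.0 and matplotlib 3.10.9 were used, and the calculations were tested on simulated data.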

Additional observations from a re-analysis of the deposited data

How the results depend on the processing

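Of the 34 regions with at least 2 antibodies, 19 were left with a peak score of at least 100, 6 with all 3 antibodies and 17 when the closest TSS had to be that of the Notch gene, while a reach of 100 kb gave 53. Leaving out 1 antibody at a time gave 6 to 34 regions, 5 to 10 genes with a region, 2 to 6 genes with a region within 1 kb of the TSS, an extended E-box share of 41.2 to 66.7% and 2 to 5 genes above the gene score threshold, with the low counts and the high share reached without ab1 and without ab2. With all 3 antibodies required, 5 genes had a region, 2 had one within 1 kb of the TSS and 2 were above the threshold, against 26.7%, 1.61% and 2.08% of protein-coding genes. A decay length of 50 kb also left 2 genes above the threshold, Dll1 and Notch1, against 3.42%. The E-box share was 76.5% for any CANNTG, against 83.7% in the genome, and 85.3% over whole regions, against 90.3%. The remaining 29 values moved less: the farthest were 24 regions with a reach of 10 kb and 4 genes with a region within 1 kb of the TSS with a peak score of at least 100, which lost Dll1 and Notch2. With that minimum score, 12% of protein-coding genes had such a region within 1 kb of the TSS. The genes above the threshold changed more than their number: with a decay length of 1 kb the count stayed at 5, against 15.4%, but Dll3 and Hey1 replaced Hes1 and Notch1. The cause of these changes was not tested, other than that dropping ab1 or ab2 leaves pairs with ab3, whose list is the shortest. The lists give no read depth, so a missing ab3 peak does not show that NEUROD2 was absent.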

Other observations

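One region was seen with ab3 alone, at -31.2 kb from the Hes1 TSS (chr16:30033926-30034438), with a score of 57.45. It was 1 of 102 regions of ab3 alone in the genome, so nearly every ab3 peak overlapped a peak of another antibody. With each peak's own midpoint as the centre of the 200 bp, the extended E-box was found at 27 of the 62 ab1 peaks of the Notch genes (43.5%, 31.9 to 55.9). It was found at 20 of 41 ab2 peaks (48.8%, 34.3 to 63.5) and 6 of 7 ab3 peaks (85.7%, 48.7 to 97.4). The mean was 59.3 ± 23.0% (SD, n = 3 antibodies), and overlapping peaks of a region count under each antibody. The same shares over each whole list are not given here, so these values do not show whether the Notch genes differ from other peaks. Regions with 1 antibody held the extended E-box in 13 of 34 (38.2%, 23.9 to 55). The share over all regions of 1 antibody in the genome is not given here, so this value has no background.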
